A study of Mus musculus with 20 samples.

Results

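The comparison described here follows the regrowth of the mouse prostate over its first days under testosterone. It sets the 5 arrays of castrated mice that then received testosterone (C14+T3) against the 5 arrays of castrated mice that did not (C14), which are 10 of the 20 arrays in the study, chosen by their labels alone. All mice were C57/B6 of 10 to 12 weeks, and each array held RNA from the whole prostate of 1 mouse. The C14 mice were killed 14 days after castration, when the gland has regressed. The C14+T3 mice were castrated for the same 14 days and were then given a pellet of 15 mg of testosterone. They were killed 3 days later, so that they were also 3 days further from surgery. Sham-treated mice (N3, 5 arrays) and mice killed 3 days after castration (C3, 5 arrays) made up the rest, and sham signals are quoted as levels for orientation, with no test. No castrated mouse with an empty pellet is named in the labels, so testosterone cannot be told apart from pellet implantation or from the added days since surgery.

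Testosterone from the testis, and its derivative dihydrotestosterone, act through the androgen receptor, a transcription factor that luminal epithelial cells and many stromal cells of the prostate carry. When androgen is withdrawn, secretory cells die or shrink and the gland involutes, while stroma and a population of surviving epithelial cells remain. When androgen returns, these survivors divide, the ducts regrow and secretion resumes. Regrowth therefore combines a secretory programme, a proliferative one and the remodelling of stroma, vessels and resident leukocytes.

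Signals were measured on the Affymetrix MG-U74A array, which carries several probes per transcript grouped into probe sets. A signal is a linear brightness scaled so that all arrays have the same trimmed mean, and it has no absolute unit, so levels of different genes are not compared with each other. Changes are given as the difference in log2(signal + 12.7), testosterone minus castrated, with its standard error (SE). A probe set was called when limma's two-sided test gave a Benjamini-Hochberg adjusted p under 0.05 over all 12422 probe sets tested. Folds are this log2 change turned back to a ratio, so they understate changes of genes with low signals. In whole tissue, fewer cells of a type and less RNA per cell cannot be told apart.

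Arrays within the C14 group correlated at 0.968 on average (Pearson's r over probe sets on the log2 scale, 0.948 to 0.980), arrays within the C14+T3 group at 0.965 (0.948 to 0.982), and pairs across the 2 groups at 0.936 (0.919 to 0.947). The control probe sets for the 3' and 5' ends of Gapdh, a check of how complete the labelled RNA was, stood apart on 4 arrays. The log2 ratio of 3' to 5' signal was 2.05 and 1.82 on C14 replicates 4 and 5, 4.50 and 3.90 on C14+T3 replicates 2 and 5, and between -0.53 and -0.08 on the other 16 arrays of the study. The mean ratio did not differ between the groups by more than the spread between arrays (difference 0.89, two-sided exact permutation p = 0.516, where 0.00794 is the smallest p possible). No batch is named in the labels. Array titles carry serial numbers that are in order of the groups, so treatment and any order of processing cannot be told apart.

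Over the whole array, 1132 probe sets rose with testosterone (9.11% of 12422) and 1992 fell (16.0%). Changes of at least 2-fold made up 370 of the rises (2.98% of all probe sets) and 592 of the falls (4.77%). The 5 signals of one group lay entirely above the 5 of the other for 977 probe sets that were higher (7.87%) and 1638 that were lower (13.2%). Counting 1 probe set per gene, 874 of 8251 genes rose (10.6%) and 1531 fell (18.6%), and the median log2 change over these genes was -0.12. Of the genes, 3.48% rose and 5.27% fell by at least 2-fold, and the groups did not overlap for 9.37% that were higher and 15.6% that were lower. The shares called at any size and this median are the background against which each gene list below is read. The excess of falls depended on the scaling: with each array centred on its own median, which moved the median change up by 0.20, 1613 probe sets rose and 1027 fell, so that rises were 61.1% of the calls instead of 36.2%. Quantile normalization gave 1354 rises and 1452 falls (48.3% rises). Without the 4 arrays of high Gapdh ratio, 986 rose and 1564 fell (38.7% rises), and no probe set called in the first analysis was called in the opposite direction under any of the 20 alternatives tried.

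**Figure D1:**
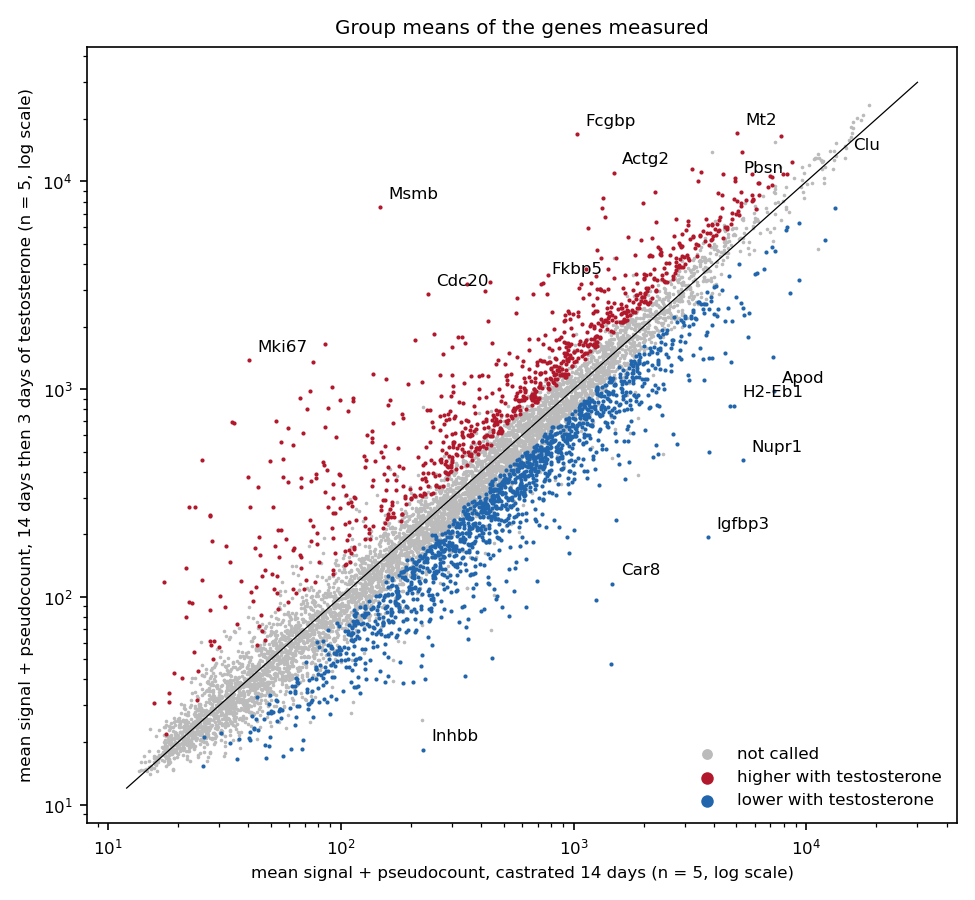
Mean signal of each of 8251 genes in castrated mice (x axis, n = 5) and in castrated mice given testosterone (y axis, n = 5), both after adding 12.7 and on log scales. Red points are the 874 genes called higher with testosterone, blue points the 1531 called lower and grey points the rest. Msmb and Mki67 lie farthest above the line of equal signal and Igfbp3 and Car8 far below it.

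The largest rise was in Msmb, which encodes beta-microseminoprotein, a major protein of prostatic secretion. Its signals were 236, 154, 211, 41.4 and 29.1 in the castrated mice and 5374, 6017, 9074, 8123 and 8897 with testosterone. The groups did not overlap, and the change was 63.4-fold (log2 change 5.99 ± 0.49, adjusted p = 1.24e-05). The sham mean was 10523 ± 1727 (SD, n = 5). The lowest castrated signals were those of replicates 4 and 5, both arrays of high Gapdh ratio. Leaving out all 4 such arrays, the log2 change was 5.13.

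Of the 15 genes with the largest rises, 13 have known roles in the cell cycle. Mki67, the Ki-67 antigen of dividing cells, rose 34.6-fold (log2 change 5.11 ± 0.14, adjusted p = 1.46e-08), from signals of 19.6 to 37.2 to 1191 to 1545. Top2a, which untangles chromosomes before they separate, rose 21.5-fold (SE 0.23 on the log2 scale) and Cdk1, the kinase that drives entry into mitosis, 20.2-fold (SE 0.24). Kif20a, a kinesin of cell cleavage, rose 20.8-fold (log2 change 4.38, and 3.65 when the arrays of high Gapdh ratio were left out) and Ckap2, a spindle protein, had a log2 change of 4.32. The exception beside Msmb was Fcgbp, a mucin-like secreted protein, at 862, 574, 1779.8, 1309.5 and 584 without testosterone and 15485, 14994, 18039, 18075 and 17496 with it. No array of one group reached the other, the change was 17.9-fold (log2 change 4.16 ± 0.29, adjusted p = 4.13e-06) and the sham mean was 19768 ± 2502.

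The largest fall was in Igfbp3, a secreted protein that binds insulin-like growth factors and is known to rise when the prostate loses androgen. It stood at 3181, 3485, 2977, 4046 and 5133 in castrated mice and at 142, 275, 194, 146 and 148 with testosterone, which is 19.7-fold lower with no overlap (log2 change -4.3 ± 0.21, adjusted p = 5.14e-07). Sham signals ranged from 161 to 285, so that the testosterone group lay in or just below the sham range. Car8, a carbonic anhydrase relative without the enzyme activity, fell 13.3-fold, and Cadps, which primes dense-core vesicles for release, fell 12.8-fold. Nupr1, a small stress-induced nuclear protein, went from 3918 to 7143 to 297 to 571 and fell 11.8-fold. Apod, a lipocalin that carries lipids and is known to be repressed by androgen, fell 7.39-fold from 7215 ± 1167 to 962 ± 129 (SD, n = 5 each).

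Inhbb, the beta B subunit shared by activin B and inhibin B, had signals of 154, 148, 219.7, 219 and 325 in castrated mice and only 4.9, 7.2, 6.5, 5.6 and 4.0 with testosterone. The latter lie under the pseudocount, so the size of the fall depends on it: the log2 change was -3.57 here, -4.97 with a pseudocount of 1 and -2.35 with a pseudocount of 43.2. Other genes among the 15 largest falls were Retn and Adipoq, hormones of fat cells, Cdh13, a cadherin held by a lipid anchor, Snap25, a protein of synaptic vesicle fusion, Cxadr, a junction protein that also serves as a viral receptor, Ifit3, an interferon-induced protein, and H2-Eb1, a class II antigen-presenting chain.

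**Figure D2:**
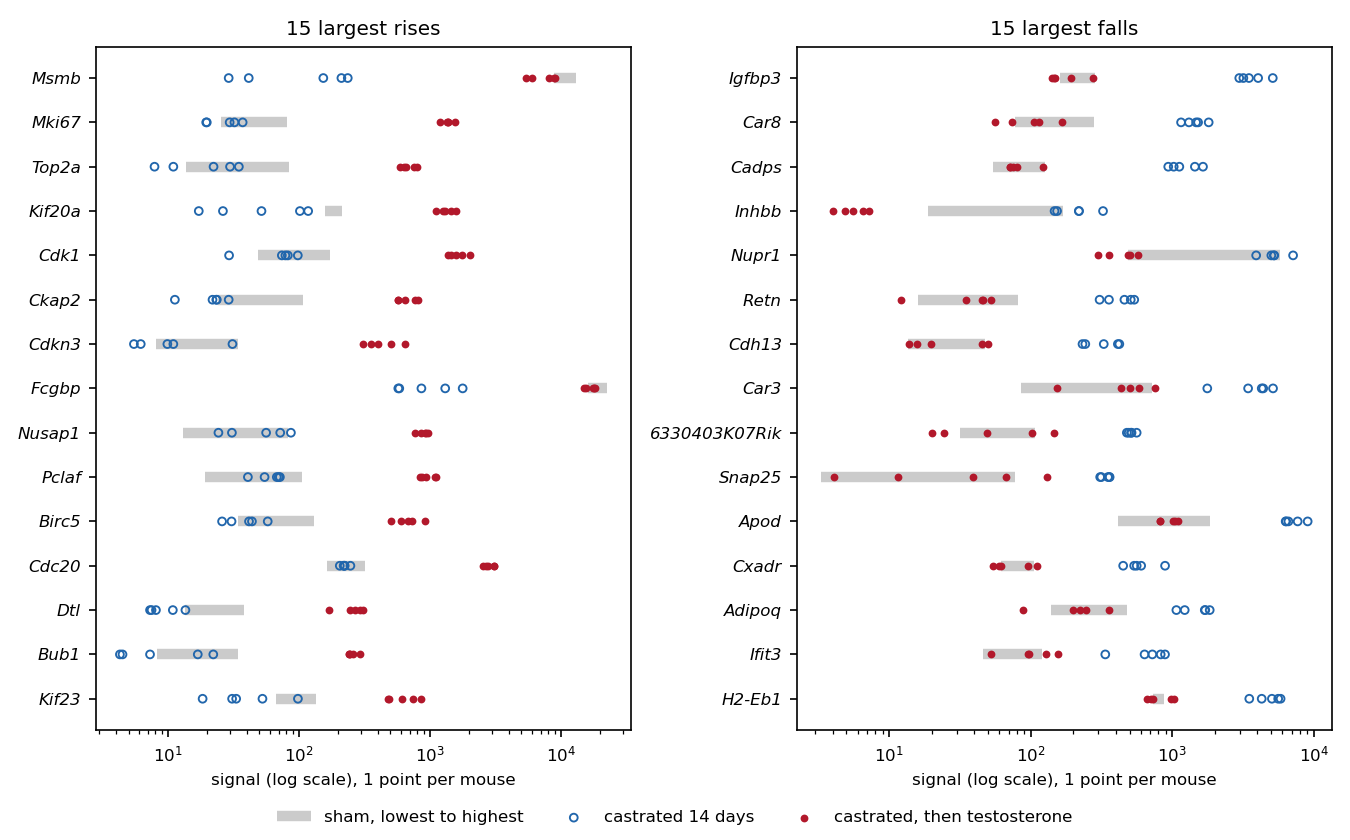
Signals on a log scale of the 15 genes with the largest rises (left) and the 15 with the largest falls (right). Each open blue circle is 1 castrated mouse, each red point 1 castrated mouse given testosterone, and the grey band spans the lowest to the highest of 5 sham mice. Genes were chosen among those in which the red points lie clear of the blue ones. The red points of most cell-cycle genes lie above the sham band, while those of Igfbp3, Car8 and Apod reach it.

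Of 24 measured genes known to respond to androgen, 12 rose and 2 fell, with a median log2 change of 0.68. Of 20 measured genes for products of prostatic secretion, 10 rose and none fell, with a median of 0.82 (by limma's test 0 were called lower, and 1 once the 4 arrays of high Gapdh ratio were left out). Fkbp5, a co-chaperone of steroid receptors and a direct androgen receptor target, had signals of 760.5, 591, 843, 738 and 684 in castrated mice and 2919.5, 3319.8, 3371, 3444 and 3175 with testosterone. Every testosterone mouse lay above every castrated one (4.45-fold, log2 change 2.15 ± 0.11, adjusted p = 7.5e-07), and above the sham mean of 1747 ± 521.

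Pbsn encodes probasin, an androgen-dependent secretory protein of the rodent prostate. It stood at 4413, 3786, 4930.4, 5992 and 5396 and at 7814, 10106, 10664, 10509.8 and 10969, again without overlap (2.05-fold, log2 change 1.04 ± 0.15, adjusted p = 0.000541). Its testosterone mean of 10013 ± 1268 lay between those of the castrated mice and of sham mice (16904 ± 1569). Azgp1, a zinc-binding secreted glycoprotein, rose 3.13-fold from 284 ± 45.3 to 912 ± 84.3, against 1799.7 ± 449 in sham mice. Apof, an apolipoprotein, rose 11.6-fold, and Cdo1, which starts cysteine breakdown, rose 5.85-fold.

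Mme, the membrane metalloprotease neprilysin, was the most uneven of these genes. Its signals were 157, 100.1, 228, 9.2 and 7.9 in the castrated mice and 957, 331, 1034, 1412 and 566 with testosterone. The low signals in both groups were those of the arrays with high Gapdh ratio. The groups did not overlap (log2 change 3.42 ± 0.73, adjusted p = 0.00561), and the log2 change without these arrays was 2.76 (adjusted p = 0.00227).

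Not all androgen-responsive genes rose. Tmprss2, an androgen-regulated surface protease, had a log2 change of 0.07 ± 0.13 (adjusted p = 0.753), with 1470.2 to 2112 in castrated mice, 1486 to 1885 with testosterone and 2092 to 3668 in sham mice. Ndrg1, a growth-arrest and stress gene often listed as androgen-induced, fell 2.48-fold (log2 change -1.31 ± 0.13, adjusted p = 4.26e-05), and Cebpd, a transcription factor, fell as well (log2 change -0.46 ± 0.13), though its call was lost in 7 of 20 alternatives.

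The machinery that makes secreted proteins rose with these products. In the endoplasmic reticulum, new secretory chains are folded by chaperones and disulfide isomerases. Of 30 measured genes of this set 15 rose and 2 fell, with a median log2 change of 0.75. The stress-responsive members are known to share an endoplasmic reticulum stress element, which transcription factors of the unfolded protein response bind. The element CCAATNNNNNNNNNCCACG, searched on both strands in the 250 bases before each gene's start, was present in 8 of the 27 set members that have a promoter in the RefSeq table (29.6%), against 12 of 6576 genes on the array (0.182%) and 27 of 17492 protein coding genes (0.154%). The 8 were Hspa5, Hsp90b1, Dnajc3 and Creld2, which rose, Canx, which fell, and Calr, Pdia6 and Ero1b, which were not called. Calr had mean signals of 11.6 in castrated mice and 13.2 with testosterone, near the pseudocount, so its probe set gives no reading. Pdia6 had a log2 change of 1.11 that did not pass limma's test (adjusted p = 0.384). Among the 13 set members that rose and have a promoter in the table, 30.8% held the element, close to the share over the set. Holding the element therefore did not set the genes that rose apart from the rest of the set. The promoters of the 4 holders that rose are shown as examples from this set. Sequences are from RefSeq (GRCm38.p6), 5′ to 3′ on the gene's strand, ending at the base before the start, with each match in capitals.
Hspa5 (chr2:34771840-34772089, + strand): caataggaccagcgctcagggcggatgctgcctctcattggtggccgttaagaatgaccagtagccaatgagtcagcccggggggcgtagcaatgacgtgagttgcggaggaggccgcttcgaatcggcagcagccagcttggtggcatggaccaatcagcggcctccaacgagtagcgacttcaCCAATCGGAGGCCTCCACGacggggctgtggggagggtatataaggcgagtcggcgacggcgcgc
Hsp90b1 (chr10:86705445-86705694, - strand): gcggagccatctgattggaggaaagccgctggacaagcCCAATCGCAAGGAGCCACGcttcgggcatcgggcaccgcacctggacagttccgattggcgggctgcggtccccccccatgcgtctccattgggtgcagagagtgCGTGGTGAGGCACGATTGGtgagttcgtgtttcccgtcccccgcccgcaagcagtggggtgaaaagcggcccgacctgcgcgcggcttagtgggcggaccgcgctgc
Dnajc3 (chr14:118937682-118937931, + strand): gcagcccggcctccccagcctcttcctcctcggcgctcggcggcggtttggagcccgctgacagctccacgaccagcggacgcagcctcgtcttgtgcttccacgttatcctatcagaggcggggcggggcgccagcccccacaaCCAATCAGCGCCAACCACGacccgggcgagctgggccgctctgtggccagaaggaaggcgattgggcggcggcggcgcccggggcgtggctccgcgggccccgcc
Creld2 (chr15:88819396-88819645, + strand): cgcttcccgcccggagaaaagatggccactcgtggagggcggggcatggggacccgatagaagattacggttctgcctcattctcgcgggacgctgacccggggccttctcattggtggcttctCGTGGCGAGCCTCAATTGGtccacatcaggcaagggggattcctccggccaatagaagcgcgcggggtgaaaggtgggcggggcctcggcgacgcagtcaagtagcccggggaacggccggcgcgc
The match in Hspa5 ends 46 bases before the start and that in Dnajc3 86 bases. Creld2 holds its match on the opposite strand, and Hsp90b1 holds 2, 1 on each strand. A match describes the letters of these promoters only.

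Creld2, a disulfide-handling protein of the endoplasmic reticulum, had signals of 647, 667, 594, 729.6 and 657 in castrated mice and 2779, 2307, 2542, 3404 and 3327 with testosterone, a 4.26-fold rise without overlap (log2 change 2.09 ± 0.13, adjusted p = 1.88e-06). Hspa5, the main chaperone of the compartment (BiP), stood at 4320.3, 4624, 4614, 4159.5 and 3165 and 8551, 6102, 9332, 11093 and 8712. It rose 2.08-fold (log2 change 1.05 ± 0.17, adjusted p = 0.00111) to a mean of 8758 ± 1794, beside 9272 ± 2030.5 in sham mice. Dnajb11, a partner of that chaperone, rose 3.4-fold and Manf, a secreted protein of the same compartment, 3.18-fold.

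Pdia4, a disulfide isomerase, had the second largest log2 change of the set but the widest spread, with 169.7, 162, 204, 85.6 and 108 against 1209, 152, 968, 1524 and 276. The groups overlapped through C14+T3 replicates 2 and 5, 2 of the arrays of high Gapdh ratio. Its log2 change was 2.01 ± 0.58 (adjusted p = 0.0275) on all arrays and 2.69 without the 4 (adjusted p = 0.00069), and 5 of 20 alternatives lost the call. Canx, a membrane chaperone, had 525 ± 57.5 and 395 ± 65.9, and its fall (adjusted p = 0.0444) was lost in 13 of 20 alternatives.

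Downstream of folding, 36 of 67 genes of translocation, glycosylation and vesicle transport rose and 1 fell, with a median of 0.44. Leaving out the 4 arrays of high Gapdh ratio, 27 rose and 2 fell. Kdelr3, a receptor that returns escaped chaperones from the Golgi, rose 3.89-fold from 219.6 to 330.0 to 904 to 1489. Man1a, which trims mannose from glycoproteins, rose 2.94-fold, Gmppb, which makes the mannose donor, 2.63-fold, and Ssr2, a subunit beside the translocation channel, 2.44-fold. Rab6a, a small GTPase of Golgi traffic, fell instead (log2 change -0.51 ± 0.11).

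Of 17 sensors and effectors of the unfolded protein response, 3 rose and 5 fell, with a median of 0.06. The balance turned after centring, with 4 higher and 2 lower. Ddit3, the pro-apoptotic factor CHOP, stood at 467, 455, 376, 374 and 454 in castrated mice and at 118, 131, 189, 66.4 and 201 with testosterone. All 5 testosterone signals were lower (3.01-fold, log2 change -1.59 ± 0.24, adjusted p = 0.000868). Atf3, a stress-induced transcription factor, fell with a log2 change of -0.63 ± 0.15, a call lost after centring (-0.44, adjusted p = 0.158). Of its 2 further probe sets 1 was called, also lower. Selenos, a membrane protein of protein export for degradation, rose 1.68-fold.

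Most sterol synthesis enzymes rose. Of 17 measured enzymes and regulators of cholesterol synthesis, 12 rose and none fell (median 0.99), while 1 gene was called lower when the 4 arrays of high Gapdh ratio were left out. Idi1, which isomerises the 5-carbon building block, stood at 264, 376, 349, 206 and 120.0 and 1352, 1544, 1289, 1661 and 1490.5. The testosterone signals were all higher (5.73-fold, log2 change 2.52 ± 0.26, adjusted p = 6.36e-05), and also above every sham signal (95.8 to 289.6). Mvd, the decarboxylase of the step before, rose 5.49-fold, Sqle, which oxidises squalene, 3.76-fold and Fdps, which makes farnesyl diphosphate, 3.35-fold. Hmgcs1, an early enzyme, went from 735 ± 148 to 1355 ± 185 (1.84-fold, log2 change 0.88 ± 0.15, adjusted p = 0.00169).

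Fatty acid genes were mixed, with 6 of 19 higher and 3 lower (median 0.15). Acsl5 and Acsl4, which activate fatty acids with coenzyme A, rose 1.81-fold and 1.76-fold. Thrsp, a lipogenic regulator, and Lpin1, a phosphatase of triglyceride synthesis, fell 2.49-fold and 1.81-fold. The count of rises was 2 without C14 replicate 2 and 3 without several other single arrays.

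The prostate makes large amounts of polyamines. Odc1, ornithine decarboxylase, the first enzyme of their synthesis, had signals of 315, 340.3, 336, 303 and 311 in castrated and 711, 1031, 836, 700.0 and 931 in testosterone-treated mice. No signals overlapped (2.53-fold, log2 change 1.34 ± 0.13, adjusted p = 3e-05). Srm, spermidine synthase, rose 2.86-fold from 416 to 635 to 1316 to 1693. Sat1, which acetylates polyamines for breakdown, fell (log2 change -0.91 ± 0.22) with overlap. Arg2, a mitochondrial arginase that supplies ornithine, rose 1.95-fold while Arg1, the cytosolic enzyme, fell 2.76-fold. A further probe set of Arg2 was not called. In all, 4 of 8 measured genes of this set rose and 2 fell.

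Of 51 translation factors and aminoacyl-tRNA synthetases 18 rose and 4 fell (median 0.22), 11 of the rises being synthetases that load amino acids onto tRNA. With the 4 arrays of high Gapdh ratio left out, 13 rose and 1 fell. Gars, the glycine enzyme, rose 2.35-fold from 893 ± 105 to 2113 ± 167, and Gspt1, a release factor, 2.0-fold. Wars, the tryptophan enzyme, had an uneven rise (log2 change 1.63 ± 0.51) that lost its call in 9 of 20 alternatives. Nucleolar genes rose in 4 of 45 cases (8.89%), close to the 10.6% over all genes. Only 2 fell (4.44%), fewer than the 18.6% over all genes, and the median was 0.06. That count of rises was 7 after centring, with quantile normalization, without the 4 arrays of high Gapdh ratio and with that ratio as a covariate. Of 33 ribosomal protein genes, 1 rose and 2 fell (median 0.13), against 4 and 1 after centring, and these genes have many near-identical copies that the array may not separate.

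Proteasome subunits rose in 10 of 37 cases and fell in none (median 0.27). The count was 6 without the 4 arrays of high Gapdh ratio, and also 6 without C14 replicate 1, 2 or 3 or C14+T3 replicate 5. Psmd5, an assembly factor of the regulatory particle, rose 2.71-fold (log2 change 1.44 ± 0.19, adjusted p = 0.000334). Of 76 genes of oxidative phosphorylation and the citrate cycle 18 rose and 3 fell (median 0.18), but only 5 rose without those 4 arrays and 11 without C14+T3 replicate 5 alone. Uqcrq, a subunit of complex III, rose 1.98-fold, and Idh1, a cytosolic isocitrate dehydrogenase, fell 2.41-fold from 2097 to 3013 to 929 to 1113. Among 26 glycolytic and hypoxia-linked genes 5 rose and 5 fell, and 3 rose when those arrays were left out. Pgk1, phosphoglycerate kinase, rose 2.4-fold, while Pdk4, which blocks pyruvate entry into the citrate cycle, fell 2.04-fold and Bnip3, a hypoxia-induced mitochondrial protein, fell 2.15-fold.

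**Figure D3:**
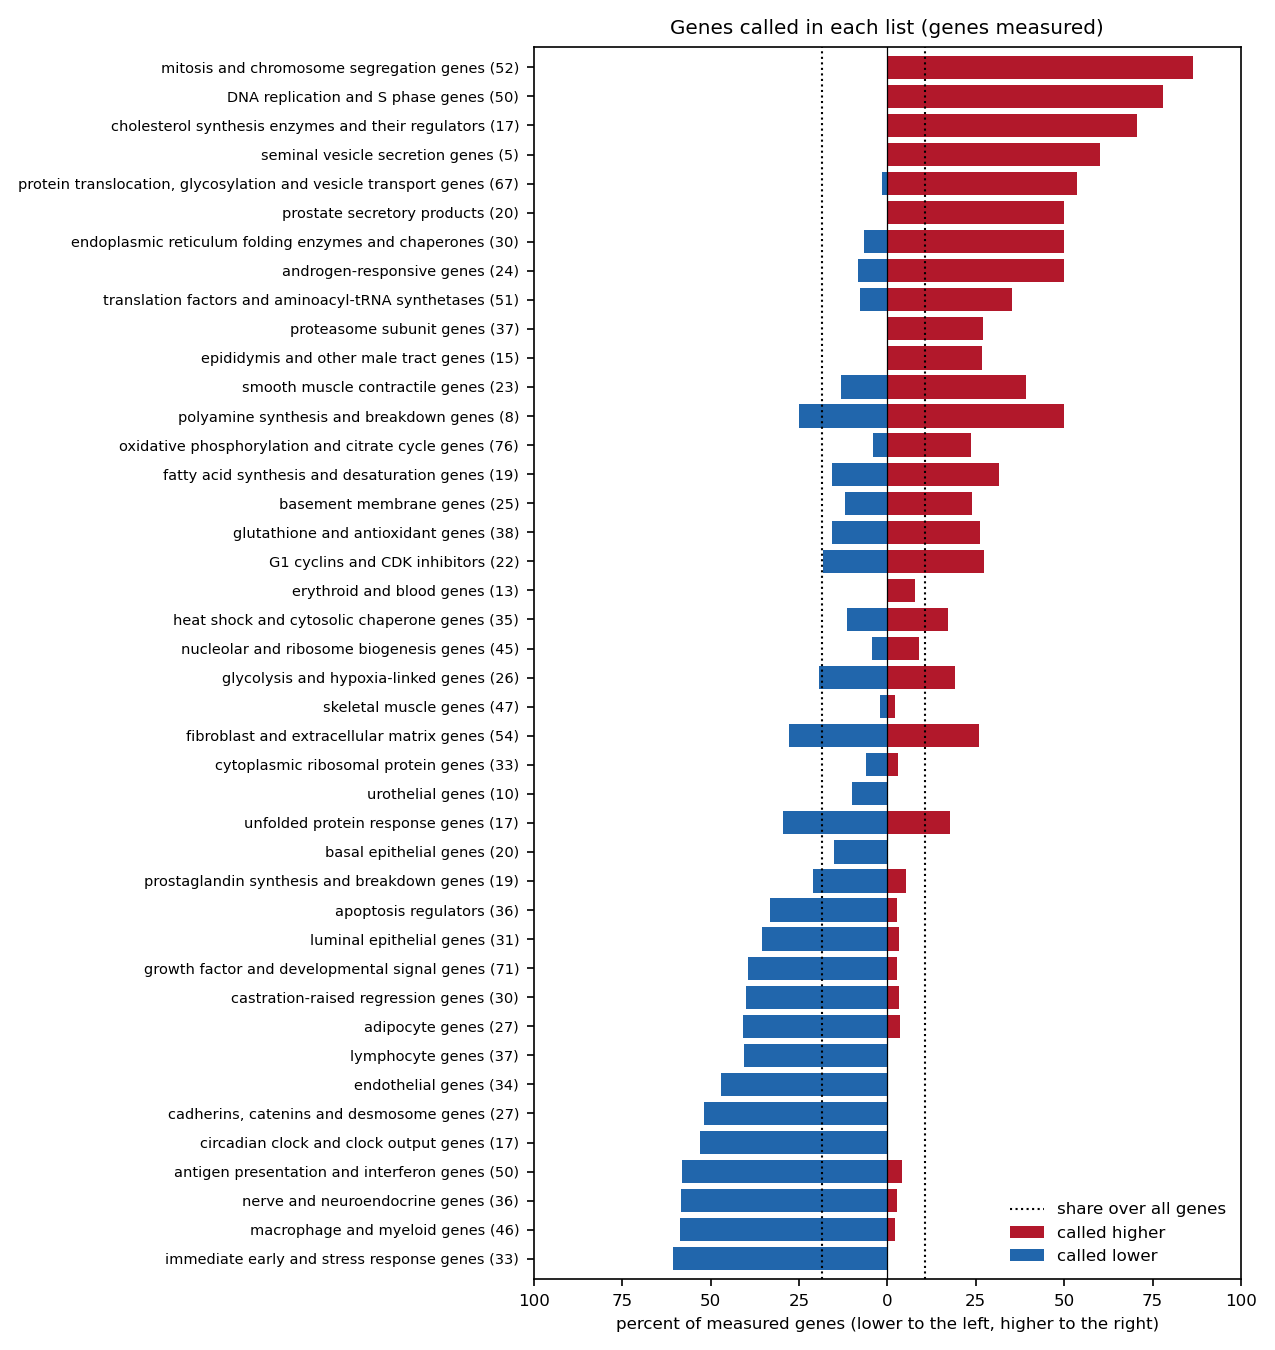
Share of each gene list called higher (red, to the right) or lower (blue, to the left) with testosterone, with the number of genes measured in parentheses. Dotted lines mark the shares over all 8251 genes, 10.6% higher and 18.6% lower. Mitosis, S phase and cholesterol genes have the largest shares of rises, and immediate early, macrophage, nerve and antigen presentation genes the largest shares of falls.

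The cell cycle gave the broadest change. Of 52 measured genes of mitosis and chromosome segregation, 45 rose and none fell, with a median log2 change of 2.30, and 44 rose without the 4 arrays of high Gapdh ratio. Of 50 genes of DNA replication and S phase, 39 rose and none fell (median 1.02, and 1 was called lower without those arrays). The summed direction held with centring, at 45 and 40 rises.

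Cdc20, which activates the ubiquitin ligase that ends metaphase, had signals of 222, 247, 224, 219.5 and 205 in castrated mice and 3107, 2560.3, 2700.0, 2766 and 3111 with testosterone. The spread within each group was small beside the 12.1-fold difference (log2 change 3.6 ± 0.1, adjusted p = 1.46e-08), and the sham mean was 245 ± 54.4. Birc5, survivin, which guides chromosome attachment and cleavage, rose 13.3-fold. Nusap1, a spindle protein, rose 14.4-fold and Bub1, a checkpoint kinase of the spindle, 11.9-fold, the last from signals of 4.3 to 22.2 that lie near the pseudocount. With a pseudocount of 1 its log2 change was 4.69 instead of 3.57.

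In S phase, Rrm2, the cell-cycle-regulated subunit of ribonucleotide reductase, stood at 78.0, 82.9, 112, 82.1 and 40.6 and 1130.0, 738, 1182, 1064 and 933. All testosterone signals were higher (11.4-fold, log2 change 3.51 ± 0.22, adjusted p = 1.9e-06) and above the sham range of 97.9 to 174. Tk1, thymidine kinase, rose 8.35-fold, Uhrf1, which carries DNA methylation through replication, 7.95-fold and Rrm1, the partner subunit of Rrm2, 5.44-fold. Pclaf, a protein that binds the replication clamp, rose 13.4-fold and Dtl, which marks replication licensing factors for destruction, 12.0-fold.

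Many replication genes are known targets of E2F transcription factors. The E2F sites TTTGGCGC, TTTGCCGC, TTTCGCGC and TTTCCCGC, searched on both strands, were present in the 250 bases before the start of 9 of 44 S phase genes with a promoter in the table (20.5%), against 239 of 6576 genes on the array (3.63%) and 475 of 17492 protein coding genes (2.72%). Of the 9, 8 rose, beside 39 of all 50 S phase genes (78.0%). Among the 34 S phase genes that rose and have a promoter in the table, 23.5% held a site, close to the share over the set. Among mitosis genes 1 of 42 held such a site (2.38%), which was Cdk1. The promoters of Mcm5 and Cdc6, which rose by log2 changes of 2.29 and 1.91 and encode a subunit and a loader of the replicative helicase, are shown with that of Cdk1 to set the S phase genes beside the mitotic one. Sites are in capitals, and the source and orientation are as above.
Mcm5 (chr8:75109259-75109508, + strand): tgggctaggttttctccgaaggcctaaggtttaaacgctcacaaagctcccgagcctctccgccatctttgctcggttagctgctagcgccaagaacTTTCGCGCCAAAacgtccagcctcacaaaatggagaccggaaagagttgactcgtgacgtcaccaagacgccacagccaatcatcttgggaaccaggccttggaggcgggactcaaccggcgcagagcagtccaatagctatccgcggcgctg
Cdc6 (chr11:98907901-98908150, + strand): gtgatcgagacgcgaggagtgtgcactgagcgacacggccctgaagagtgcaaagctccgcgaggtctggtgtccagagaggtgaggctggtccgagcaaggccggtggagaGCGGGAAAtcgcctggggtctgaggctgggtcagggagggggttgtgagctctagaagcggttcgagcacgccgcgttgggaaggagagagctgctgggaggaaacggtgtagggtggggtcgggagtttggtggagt
Cdk1 (chr10:69352913-69353162, - strand): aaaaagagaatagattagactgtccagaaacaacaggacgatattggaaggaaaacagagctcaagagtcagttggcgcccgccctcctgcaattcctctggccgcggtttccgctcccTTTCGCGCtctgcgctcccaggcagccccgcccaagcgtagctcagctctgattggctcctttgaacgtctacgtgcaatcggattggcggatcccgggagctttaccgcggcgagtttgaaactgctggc
The 2 sites in Mcm5 lie on opposite strands and overlap, ending 145 and 141 bases before the start. The sites in Cdc6 and Cdk1 end 130 and 123 bases before it. The full androgen response element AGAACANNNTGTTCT was found in the same window of 1 of 17 androgen-responsive genes, in none of 16 secretory genes and in 1 of 6576 genes on the array. No match says only that these letters are not in this window.

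Regulators of the G1 phase changed in both directions. Of 22 G1 cyclins, kinases and inhibitors 6 rose (27.3%, against 10.6% over all genes). The 4 that fell (18.2%) were close to the 18.6% over all genes. The median was -0.07, and 0.13 after centring. Cdkn2d, an inhibitor of cyclin D kinases, rose 2.51-fold from 269 ± 33.1 to 696 ± 84.8, against 107 ± 45.7 in sham mice. Ccnd2, cyclin D2, fell 2.38-fold (log2 change -1.25 ± 0.16, adjusted p = 0.000276), Cdkn1c, the inhibitor p57, fell 2.11-fold and Rbl2, a pocket protein of resting cells, 1.97-fold. The count of rises was 3 without C14 replicate 1, C14 replicate 3 or C14+T3 replicate 5.

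Of 36 apoptosis regulators 12 fell and 1 rose (median -0.43). Bcl2l11, the death-promoting protein Bim, stood at 962, 914, 773, 1106 and 1216 and 326, 443, 401, 302 and 446. It fell 2.54-fold with no overlap (log2 change -1.35 ± 0.16, adjusted p = 0.000145), to below the sham mean of 692 ± 85.3. Bid, another death-promoting member of the Bcl2 family, fell 2.95-fold and Casp4, an inflammatory caspase, 2.48-fold. Gadd45g, a growth-arrest gene, was the exception and rose 2.46-fold. Its relative Gadd45b fell 5.72-fold, from 555 to 1251 to 118 to 188.

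Most immediate early genes, which respond to stimuli within minutes, fell, with 20 of 33 lower and none higher (median -0.63). Without the 4 arrays of high Gapdh ratio 16 fell and 1 rose, and 15 fell after centring. Fos, a part of the AP-1 transcription factor, had signals of 726, 649, 556, 761 and 804 in castrated mice and 207, 219, 181, 183 and 260.5 with testosterone. All were lower (3.2-fold, log2 change -1.68 ± 0.14, adjusted p = 1.25e-05). Its partner Jun fell 3.77-fold and Zfp36l1, which destabilises messenger RNAs, 2.43-fold. These genes also respond to tissue handling, and the effect of handling was not tested.

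Among 71 growth factors, receptors and developmental signals, 28 fell and 2 rose (median -0.39), while 21 fell with the 4 arrays of high Gapdh ratio left out and 15 after centring. Kit, the stem cell factor receptor, fell 2.9-fold from 292 to 464 to 86.0 to 145, and Dkk3, a secreted protein of the Dickkopf family, 3.17-fold. Bmp7, a bone morphogenetic protein, rose 2.16-fold from 315 ± 69.0 to 685 ± 101, beside 892 ± 104 in sham mice. Fst, which binds and blocks activins, had a log2 change of 0.75 ± 0.2 (adjusted p = 0.0543 when those arrays were left out), while the activin subunit Inhbb fell as described above.

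Of 30 genes known as raised in the regressing prostate, 12 fell, 1 rose and the median was -0.43 (7 fell after centring). Sparcl1, a matrix-associated protein, went from 3328 to 3899 to 939 to 1184 and fell 3.27-fold (log2 change -1.71 ± 0.1, adjusted p = 1.55e-06). Clu, clusterin, the classic gene of castration, did not pass the test: its signals were 14089, 15519.6, 11699, 17744 and 13807 in castrated mice and 12483, 12142, 14907, 12969 and 11925 with testosterone, which overlap (log2 change -0.17 ± 0.13, adjusted p = 0.388). Both groups stood above the sham range of 4551 to 8470.1. Igfbp2, an insulin-like growth factor binding protein, rose 2.19-fold.

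**Figure D4:**
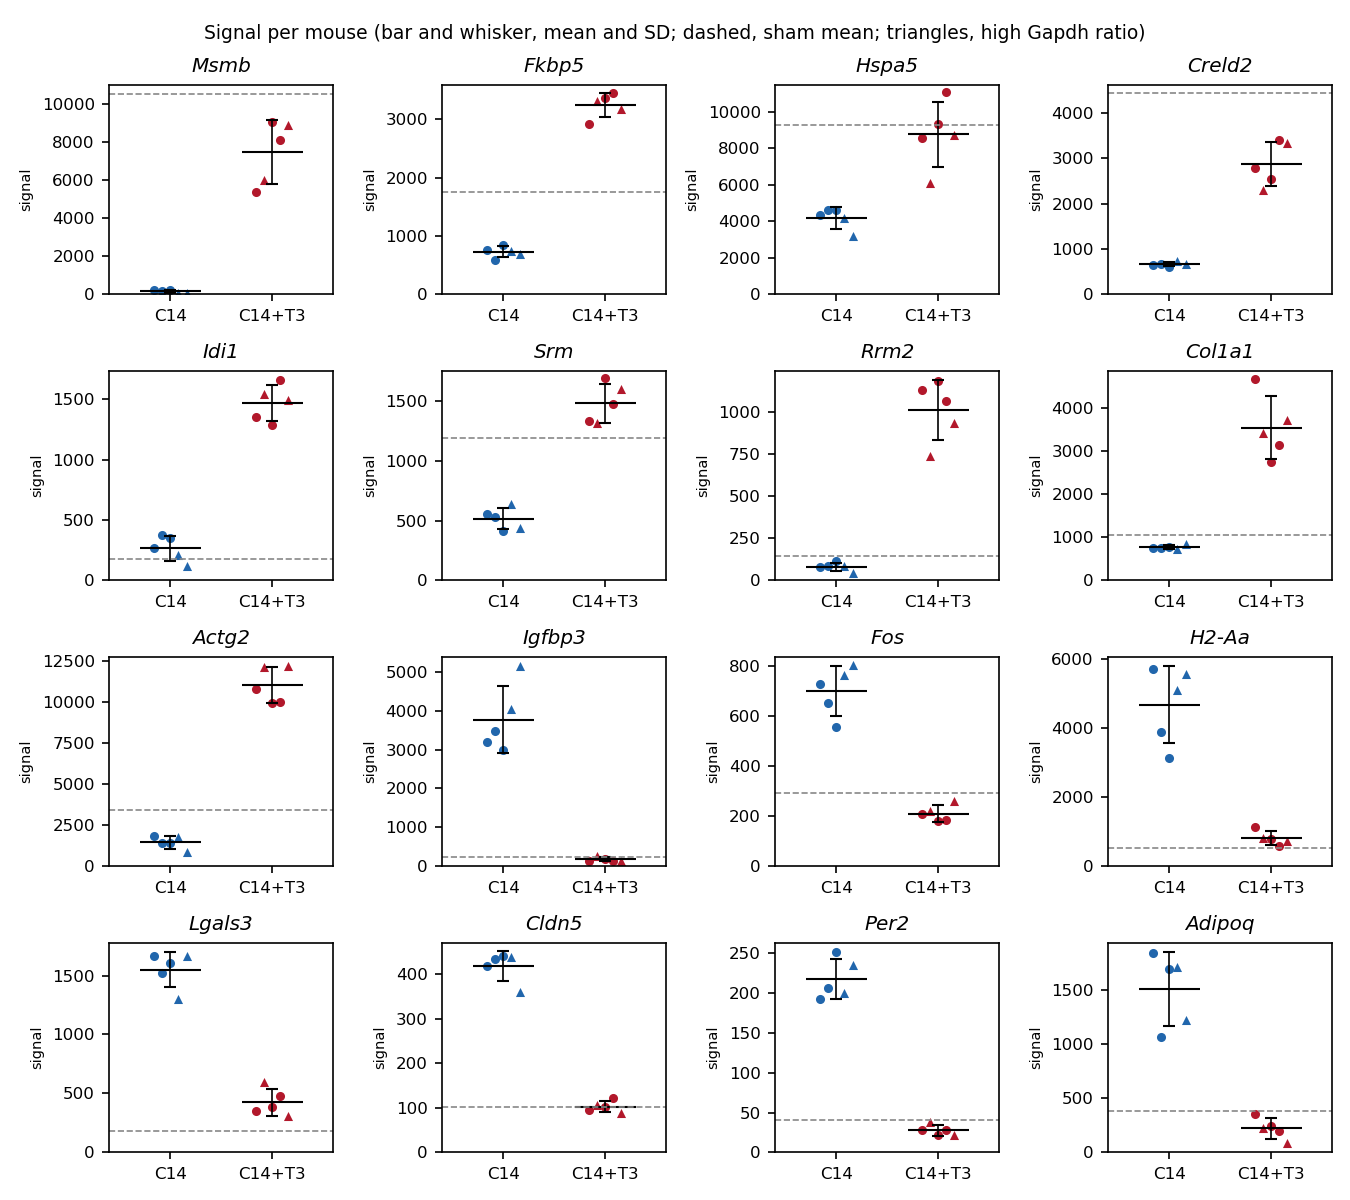
Signal per mouse of 16 genes in castrated mice (C14, blue) and castrated mice given testosterone (C14+T3, red), on linear axes from 0. Horizontal bars are means, whiskers are SD (n = 5), the dashed line is the sham mean, and triangles are the 4 arrays of high Gapdh ratio. The 2 groups separate in every panel, and the testosterone group lies above the sham mean for Idi1, Rrm2, Col1a1 and Actg2 and below it for Msmb and Creld2.

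Leukocyte genes fell. Of 46 macrophage and myeloid genes 27 were lower and 1 higher (median -0.90), and 20 were lower without the 4 arrays of high Gapdh ratio or after centring. Of the defining macrophage markers, Csf1r, the receptor for colony stimulating factor, stood at 1379, 1048, 1068, 1214 and 1573 in castrated mice and 605, 612, 589, 438 and 528 with testosterone. Its groups did not overlap (log2 change -1.16, adjusted p = 0.000237), and sham signals were 258 to 349. Adgre1, the F4/80 antigen, had a log2 change of -1.6 and Cd68, a lysosomal protein of macrophages, one of -0.67. Mpeg1, a pore-forming protein of phagocytes, fell 4.37-fold, Lgals3, galectin 3, 3.66-fold and Ctss, cathepsin S, 3.43-fold. The summed signal of the list was 30335 to 41346 in castrated mice and 22219 to 29013 with testosterone.

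Cd52 was the exception. It encodes a small surface glycoprotein of leukocytes that is also made by epithelium of the male tract, and its signals were 2639, 1998, 1862, 3159 and 1420.4 in castrated mice against 7534, 10777, 8657, 7387 and 9938. All testosterone signals were higher (4.09-fold, log2 change 2.03 ± 0.21, adjusted p = 6.45e-05), with a sham mean of 5630.3 ± 1942.

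Antigen presentation and interferon genes were lower in 29 of 50 cases and higher in 2 (median -0.65, with 22 lower when the 4 arrays of high Gapdh ratio were left out and 19 after centring). H2-Aa, a class II chain, stood at 5714, 3888, 3134, 5121 and 5569 and 1131, 811, 782, 598 and 744. The 5.66-fold fall was without overlap (log2 change -2.5 ± 0.21, adjusted p = 1.37e-05), toward a sham mean of 532 ± 78.7. H2-Eb1, a further class II chain, fell 5.84-fold and Ifit3 5.85-fold. H2-Q10, a secreted class I molecule known mainly from liver, rose 7.39-fold from 161 to 290.0 to 1429.5 to 2252, and class I genes have near-identical relatives that a probe set may not separate. Isg20, an exonuclease induced by interferon, rose 2.32-fold.

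Of 37 lymphocyte genes 15 fell and none rose (median -0.40). Under a filter on low signals 8 fell, where 1697 of all 6911 probe sets that passed were called lower. How many of the 37 passed was not counted. Ccl5, a chemokine of T cells, went from 349 to 474 to 28.0 to 139 (5.42-fold lower), and Ltb, lymphotoxin beta, fell 3.88-fold. Ighm and Jchain, of antibody-secreting cells, fell 2.91-fold and 2.92-fold with wide spread, since C14 replicate 1 alone had signals of 5273 and 1211, and each call was lost when the 4 arrays of high Gapdh ratio were left out (adjusted p = 0.0762 and 0.0579). The defining markers were low on all arrays: Cd3e, a T cell receptor chain, had 27.4 to 51.3 and 23.1 to 33.3, and Cd79a, of B cells, 42.7 to 197 and 45.3 to 151, with no call.

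In the stroma, of 54 fibroblast and extracellular matrix genes 14 rose and 15 fell (median -0.15, and 0.04 after centring). The counts were 10 and 14 with the 4 arrays of high Gapdh ratio left out, and 18 and 10 after centring. Col1a1, the main chain of type I collagen, had signals of 739, 745, 776, 725 and 848 in castrated mice and 4683, 3425, 2746, 3159.7 and 3732 with testosterone. No signal overlapped (4.5-fold, log2 change 2.17 ± 0.14, adjusted p = 2.34e-06), and the testosterone group lay above the sham mean of 1052 ± 542. Col5a2, a chain that sets fibril diameter, rose 5.57-fold, Col15a1, a collagen of vessel and muscle surroundings, 2.88-fold, and Eln, elastin, 2.84-fold. Thy1, a surface protein of fibroblasts and T cells, fell 2.84-fold.

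Of 25 basement membrane genes 6 rose and 3 fell (median -0.08, and 0.12 after centring). With the 4 arrays of high Gapdh ratio left out, 1 rose and 3 fell. Col17a1 and Lama3, both parts of the anchor of basal epithelial cells, fell 2.01-fold and 1.74-fold.

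Smooth muscle, a main stromal cell type of the rodent prostate, had 9 of 23 contractile genes higher and 3 lower (median 0.15). Actg2, the gamma actin of visceral smooth muscle, stood at 1865, 1431, 1389, 1792 and 881 and 10808, 12147, 9961, 9994 and 12190.3. It rose 7.65-fold without overlap (log2 change 2.93 ± 0.19, adjusted p = 2.5e-06), to well above the sham mean of 3442 ± 1552. Cnn1, calponin, rose 2.01-fold, Tagln, transgelin, 1.71-fold and Acta2, the vascular and stromal alpha actin, 1.49-fold, from 5476 ± 788 to 8124 ± 615. Actin genes are close relatives in sequence, so their probe sets may share signal. Kcnmb1 and Kcnma1, the subunits of a potassium channel that relaxes smooth muscle, fell 3.05-fold and 1.42-fold, the call of Kcnma1 being lost in 2 of 20 alternatives.

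Endothelial genes fell in 16 of 34 cases and rose in none (median -0.38), with 9 lower after centring. Cldn5, the tight junction claudin of vessels, had 419, 435, 441, 438 and 360.3 in castrated mice and 95.5, 106, 101, 122 and 88.9 with testosterone. The fall of 3.75-fold had a small error (log2 change -1.91 ± 0.11, adjusted p = 1.36e-06), and the testosterone mean was 103 ± 12.3, beside 101 ± 28.2 in sham mice. Vwf, von Willebrand factor, fell 2.02-fold and Aqp1, a water channel, 2.14-fold. A further probe set of Aqp1 was not called.

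Nerve and neuroendocrine genes fell in 21 of 36 cases and rose in 1 (median -0.95). Under the filter on low signals 12 fell, and how many of the 36 passed was not counted. Snap25 had signals of 359, 316, 361, 309.9 and 352 and 66.6, 4.1, 38.9, 11.5 and 129.5. The testosterone signals were all lower and widely spread, the change was 7.43-fold (log2 change -2.89 ± 0.49, adjusted p = 0.00155), and the sham mean was 40.6 ± 33.5. Prph, an intermediate filament of peripheral neurons, fell 5.67-fold and Chgb, a granin of secretory granules, 3.17-fold. The neuropeptide galanin (Gal) rose, with a log2 change of 0.58 ± 0.16, a call lost in 2 of 20 alternatives.

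Few epithelial identity genes rose with the secretory products. Of 31 luminal genes 11 fell and 1 rose (median -0.27, and 6 fell after centring). Krt8, the keratin that defines luminal cells, stood at 6662, 6261, 5335, 8038 and 9240.2 in castrated mice and at 4318, 4471, 5038, 4839 and 5450.5 with testosterone. The groups overlapped, and the fall of -0.54 ± 0.15 (adjusted p = 0.0258) was lost in 5 of 20 alternatives, with an adjusted p of 0.115 without the 4 arrays of high Gapdh ratio and 0.261 after centring. Of the other defining luminal markers, Krt18 fell without overlap, from 6524 to 9663 to 5595 to 6356 (log2 change -0.44, adjusted p = 0.0189). Pbsn, which is also a secretory product, rose as described above, so the defining luminal markers did not move together. Car2, a carbonic anhydrase, fell 2.74-fold, Ly6d, a surface marker of luminal cells that resist castration, 2.71-fold and Cldn4, a claudin, 2.8-fold. Of 20 basal genes 3 fell (15.0%, against 18.6% over all genes) and none rose. Krt5, the keratin that defines basal cells, was near background on all 10 arrays (9.9 to 33.4 and 10.5 to 29.8), so this marker gives no reading of basal cells here. Krt6a, a keratin of activated epithelium, fell 3.43-fold, and Trp63, the basal transcription factor p63, had a log2 change of -0.49 ± 0.13, lost in 3 of 20 alternatives.

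Of 27 cadherins, catenins and desmosome genes, which hold cells together, 14 fell and none rose (median -0.41). The count was 6 after centring, 9 with quantile normalization and 8 once the 4 arrays of high Gapdh ratio were left out. Cdh13 stood at 328, 423, 413, 243 and 232 and 45.6, 13.8, 19.9, 50.3 and 15.7, with no overlap (8.49-fold lower, log2 change -3.09 ± 0.29, adjusted p = 2.94e-05) and a sham mean of 26.0 ± 13.9. Dsp, desmoplakin, fell 1.98-fold, Ppl, periplakin, 2.26-fold and Dsc2, desmocollin 2, 2.37-fold.

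Clock genes fell in 9 of 17 cases and rose in none (median -0.82). Per2, a repressor of the daily clock, had signals of 192, 206, 251, 200.5 and 235 in castrated mice and 28.6, 38.0, 21.7, 27.9 and 22.3 with testosterone. All were lower (5.72-fold, log2 change -2.52 ± 0.13, adjusted p = 7.5e-07). Dbp, a clock output factor, fell 4.87-fold, Bhlhe40 2.6-fold and Nr1d1, a nuclear receptor of the clock, 2.54-fold. The labels give no time of day for tissue collection, so treatment and hour of collection cannot be told apart for these genes.

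Metallothioneins, which bind zinc, rose: Mt2 went from 5043 ± 585 to 17038 ± 772 (3.39-fold) and Mt1 rose 3.17-fold, against sham means of 22736 ± 2518 and 18575 ± 2142. They belong to a list of 38 glutathione and antioxidant genes of which 10 rose and 6 fell (median 0.15). Gstt1, a glutathione transferase, fell 2.72-fold and Mgst1, a membrane-bound one, 2.34-fold. Of 35 heat shock and cytosolic chaperone genes 6 rose, Fkbp5 the most, and 4 fell, among them Hspa2, with a log2 change of -1.0 ± 0.18, and Hspa1a. Of 19 prostaglandin genes 4 fell (21.1%, close to the 18.6% over all genes), Alox12 by 2.19-fold. Hpgd, which inactivates prostaglandins, rose 1.62-fold.

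Genes of tissues next to the prostate were measured to show what else the samples held. Of 27 adipocyte genes 11 fell and 1 rose (median -0.69). Adipoq, adiponectin, the defining marker, stood at 1840.5, 1070.1, 1699, 1712 and 1226 and 357, 224, 247, 198 and 87.9, a 6.86-fold fall with no overlap (log2 change -2.78 ± 0.31, adjusted p = 9.98e-05). The summed signal of the list was 16626 to 24229 in castrated mice and 13592 to 15722 with testosterone, against 12780 to 15122 in sham mice. The part of surrounding fat in other falls was not tested.

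Skeletal muscle genes varied widely between mice of the same group. Their summed signal ran from 8542 to 62228 in castrated mice and from 16017 to 55508 with testosterone. Of 47 genes 1 rose and 1 fell (median -0.42), while 6 fell without the 4 arrays of high Gapdh ratio. Myh4, a fast muscle myosin, had 2447, 3454, 4866, 1160.0 and 130.0 and 59.6, 1103, 527, 674 and 4.8, which overlap. The gene that rose was Acta1, skeletal alpha actin (4.51-fold, log2 change 2.17 ± 0.52), a close relative in sequence of Actg2. Its log2 change was 1.33 (adjusted p = 0.00956) when those 4 arrays were left out. Ckm, muscle creatine kinase, did not pass the test (log2 change -0.71, adjusted p = 0.561).

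Seminal vesicle secretion genes were high in both groups and in sham mice. The vesicles adjoin the prostate, and 3 of 5 measured genes rose (median 1.68). Svs5 had signals of 4405, 8586, 4024, 8142 and 1198 in castrated mice and 12114, 13492, 13741, 16265 and 13749 with testosterone (3.2-fold, log2 change 1.68 ± 0.45, adjusted p = 0.0201). The groups did not overlap, and C14 replicate 5 was lowest for all of Svs2, Svs4 and Svs5. Svs2 stood at 151 to 12289 and 13928 to 16802 and was not called (adjusted p = 0.2). The count of rises was 1 with a pseudocount of 1, with array weights and without C14 replicate 1 or 3 or C14+T3 replicate 2, 3, 4 or 5. How much vesicle tissue each sample held was not tested.

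Of 10 urothelial genes 1 fell (Sprr1a, 3.11-fold), and of 13 erythroid genes 1 rose. Of 15 genes of the epididymis and other male tract 4 rose and none fell (median 0.01), and their summed signal was 5042 to 8419 in castrated mice and 10387 to 12763 with testosterone, without overlap. Bpgm, the erythroid gene that rose, makes the regulator of haemoglobin's oxygen affinity and went from 286 to 505 to 2514 to 3669.5 (7.17-fold), while the haemoglobin gene Hba-a1 was not called (adjusted p = 0.286). Defb2, a beta defensin, rose 10.4-fold from 22.4 to 76.6 to 408 to 753, and Adam28, a metalloprotease of the epididymis and of lymphocytes, 7.63-fold.

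**Figure D5:**
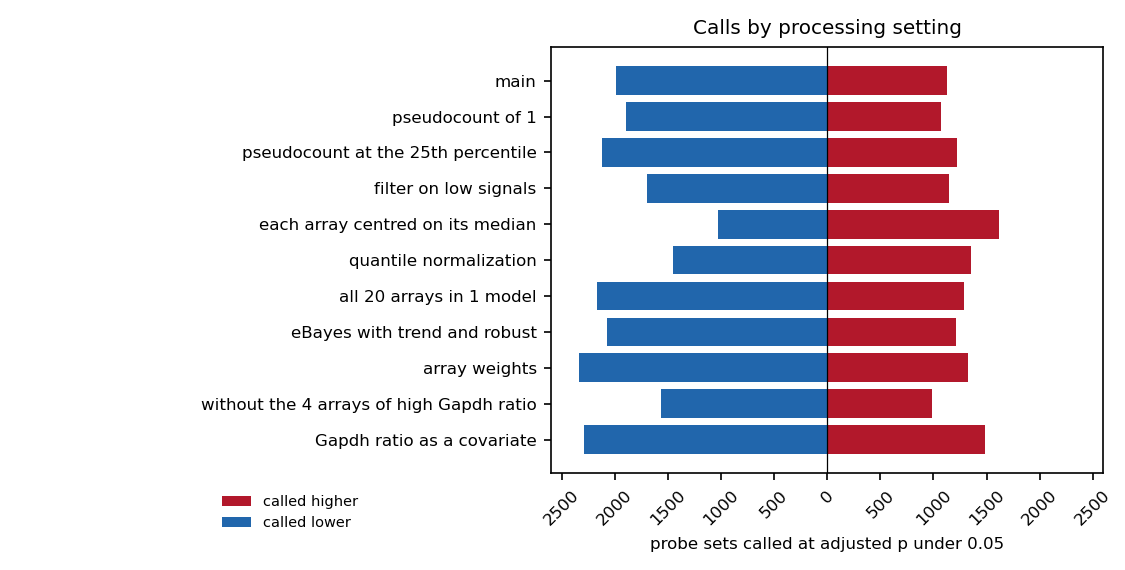
Number of probe sets called higher (red, right) or lower (blue, left) with testosterone under the main processing and 10 alternatives. Falls outnumber rises (1992 against 1132) in the main processing, rises outnumber falls (1613 against 1027) when each array is centred on its median, and both counts are smaller without the 4 arrays of high Gapdh ratio.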

How the data were processed

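Expression was measured in whole prostates on 1 Affymetrix MG-U74A array per mouse, 5 in each of 4 groups taken from the sample labels. The deposited values are intensities, 1 linear signal per probe set, computed with MAS5 version 5.0 per the submitters' processing notes. After trimming 2% of values at either end, array means were 500.21 to 500.32, which points to a scaling by the authors before deposit, so only shifts relative to the rest of each array are seen. Scan settings are not given in the sources used here. The most alike arrays shared identical values for 0.368% of probe sets. The number of arrays limits precision.

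The 66 Affymetrix control probe sets were left out. The other 12422 were fitted on log2(signal + 12.7), the pseudocount being the 10th percentile of all values, with limma 3.58.1 in R 4.3.3 (lmFit, eBayes, two-sided, Benjamini-Hochberg, threshold 0.05) on the 10 arrays of the comparison. SE is limma's, SD is over 5 arrays. Nothing in the labels says more of the replicates than 1 mouse each. Symbols came from the platform annotation: 10833 probe sets had 1 symbol, 396 several and 1193 none, and 10817 of the first were found in RefSeq by Entrez ID. Each of 8251 genes was represented by the probe set of highest mean over the 20 arrays. Of 215 named genes 58 had further probe sets, none of which was called in the opposite direction. Some of these were not called in either direction, among them those of Arg2 and Aqp1.

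The named genes included the 15 largest rises and falls among called genes with no overlap between groups and a higher group mean above the median of all values (191). Up to 4 called members of each of 42 gene lists were added by the same limit on signal, whether or not their groups overlapped. List members called against their list's majority and a fixed set of prostate genes were added as well. Defining cell type markers and genes with a promoter match are named beside these. The members and lists were chosen with earlier results of these data known. Motifs were searched in RefSeq promoters (GRCm38.p6). Alternatives were 2 other pseudocounts, a filter on low signals, centring on the array median, quantile normalization, all 20 arrays in 1 model, a trended robust prior, array weights, leaving out the 4 arrays of high Gapdh ratio (log2 3'/5' above 1), that ratio as a covariate, and leaving out each array. The fit was also run on simulated data with 12422 probe sets, of which 200 changed. It called 17.6% of those shifted by 0.5 on the log2 scale, 61% of those shifted by 1 and 90.6% of those shifted by 2. Of its calls 5.14% were false. Far more probe sets were called in the comparison itself (3124, 25.1%), and the adjusted threshold depends on how many change. These shares therefore do not give the power of the fit here.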

Additional observations from a re-analysis of the deposited data

Results flagged for a closer look

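In 19 of 430 sets of 5 arrays (215 named genes in both groups, 4.42%) the highest or lowest array stood apart from the other 4 by more than Dixon's 95% limit, and chance flags about 1 in 20 such sets. C14 replicate 5, an array of high Gapdh ratio, gave 7 of them. On it Bmp7 (193.9 against 325.5 to 358.9 on the others), Cdk1 (29.3), Cldn5 (360.3), Cnn1 (1207.2), Hspa5 (3165.4) and Igfbp2 (258.0) were lowest and Tmprss2 (2112.1) highest. C14+T3 replicate 2, also of high Gapdh ratio, gave 5: Aqp1 (150.3), Ndrg1 (390.8), Prph (7.3 against 75.6 to 140.8) and Ssr2 (2401.7) were lowest and Mgst1 (1460.1) highest. On C14+T3 replicate 3 Arg2 was lowest (1245.2) and Krt5 highest (29.8). Single flags fell on Dbp on C14 replicate 1 (733.8, lowest), Sparc on C14 replicate 3 (1302.7, lowest), Canx on C14 replicate 4 (625.9, highest), Pbsn on C14+T3 replicate 1 (7813.9, lowest) and Cadps on C14+T3 replicate 5 (122.3, highest). The part of RNA quality in these values was not tested.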

How the results depend on the processing

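None of the 212 called named genes changed sign under any of the 20 alternatives. Of their 4233 values, 3996 kept the call and 237 lost it, and 45 genes lost it at least once. Of 59 values of the 3 named genes that were not called (Clu, Krt5 and Tmprss2), 5 changed sign and none was called. Centring turned the balance of all calls from 36.2% to 61.1% rises, turned that of the unfolded protein response, ribosomal protein, and fibroblast and matrix genes, and changed the sign of 5 list medians (G1 -0.07 to 0.13, fibroblast and matrix -0.15 to 0.04, basement membrane -0.08 to 0.12, urothelial -0.04 to 0.15, prostaglandin -0.05 to 0.14). Centring each array on its median raised all changes by 0.20 and cut the probe sets called lower from 1992 to 1027. It cut falls to 15 for growth factor and developmental signal genes, 19 for antigen presentation and interferon genes, 9 for endothelial, 6 for luminal, 6 for cadherin and desmosome, 7 for castration-raised, 2 for unfolded protein response and 1 for ribosomal protein genes, and gave 7 nucleolar and 2 skeletal muscle rises. Quantile normalization gave 7 nucleolar and 3 glycolysis rises and 9 cadherin and desmosome falls. Without the 4 arrays of high Gapdh ratio rises numbered 7 for nucleolar, 6 for proteasome, 3 for glycolysis, 5 for oxidative phosphorylation and 1 for basement membrane genes, and falls 1 for ribosomal protein, 6 for skeletal muscle, 2 for urothelial and 8 for cadherin and desmosome genes. With the ratio as a covariate, 7 nucleolar genes rose. The filter on low signals, which tested 6911 probe sets, left 8 lymphocyte, 12 nerve, 2 skeletal muscle and 2 prostaglandin falls. With all 20 arrays in 1 model 3 skeletal muscle and 2 prostaglandin genes fell. Seminal vesicle rises numbered 1 with a pseudocount of 1 and 1 with array weights, which gave 2 skeletal muscle falls. The cause of these shifts was not tested.

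Leaving out each array in turn gave 930 to 1133 rises and 1628 to 1971 falls. The lists whose counts moved by over 1.5 times ranged from 1 to 3 rises (seminal vesicle), 3 to 5 falls (unfolded protein response), 2 to 5 rises (fatty acid), 2 to 6 rises (nucleolar, lowest without C14+T3 replicate 3), 6 to 12 rises (proteasome), 3 to 5 rises (G1), 11 to 20 rises (oxidative phosphorylation), 0 to 2 falls (skeletal muscle), 1 to 2 falls (urothelial) and 9 to 15 falls (cadherin and desmosome, lowest without C14 replicate 2). Skeletal muscle falls were 0 without C14 replicate 1, 2 or 3 or C14+T3 replicate 3 or 5 and 2 without C14 replicate 5, as were urothelial falls. Unfolded protein response falls were 3 without C14 replicate 1, 2 or 3. No paired analysis was made, because the labels link no mouse of one group with a mouse of the other. Of 5511 probe sets that did not pass the filter 161 rose (2.92%) and 547 fell (9.93%), against 14.1% and 20.9% of those that passed. The filter asked for a signal above 191 on at least 5 of the 20 arrays, so a probe set high in 1 group alone could pass. These shares therefore do not show how well changes of dim genes were resolved.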
